A study of Capra hircus with 9 samples.

Results

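Rab GTPases and SNARE proteins are the genes described here, in mammary gland tissue of 9 healthy Laoshan dairy goats. They were chosen by symbol alone, as every row of the deposited gene table named as a Rab with a number, a numbered syntaxin (STX), syntaxin-binding protein (STXBP), VAMP or SNAP, or as NSF, NAPA, NAPB or NAPG. The rule found 96 of the 23499 genes, 59 Rab genes and 37 genes of the SNARE group, and the families are kept apart below. The tissue was taken at slaughter, from 3 goats in late lactation (LL, 240 days postpartum), 3 in the dry period (DP, 300 days postpartum) and 3 in late gestation (LG, 140 days after mating). All goats were in the third parity, about 4 years old and kept together, and each library is 1 goat, so the spread within a stage is that between goats. The comparisons ask which genes of vesicle traffic differ between a gland that makes milk, one that has stopped and one that prepares for the next lactation.

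Rab proteins are small GTPases that mark the membrane of one compartment each and, when loaded with GTP, recruit the motors, tethers and other effectors that carry a vesicle to its target. SNARE proteins on the vesicle and on the target membrane then zip into one bundle and fuse the membranes, syntaxin-binding proteins steer that assembly, and NSF with its SNAP adaptors takes the bundle apart for the next round. In the lactating mammary cell this machinery moves casein and lactose in secretory vesicles to the apical membrane, while milk fat leaves as lipid droplets wrapped in plasma membrane.

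The deposited values name no unit and were read as FPKM, read fragments scaled to gene length and to the size of the library. Summed FPKM was 940676 to 1157015 in LL goats, 601250.2 to 616268 in DP goats and 733277 to 768157 in LG goats, and CSN2 (beta-casein) with LALBA (alpha-lactalbumin) summed to 163617 to 264229 scaled FPKM in LL goats, 14.8 to 35.8 in DP goats and 3843 to 5297 in LG goats. Each library was therefore divided by a median-ratio factor, 0.498 to 0.605 in LL goats, 1.44 to 1.53 in DP goats and 1.2 to 1.31 in LG goats, and "scaled FPKM" below means the deposited value divided by that factor. Without it, the median gene would stand 1.09 higher on the log2 scale in DP than in LL and 0.93 higher in LG than in LL. In bulk tissue, fewer cells of a type and less RNA per cell cannot be told apart. The summed scaled level of 6 epithelial markers was 819 to 1106 in LL goats, 269 to 522 in DP goats and 733 to 891 in LG goats, that of 7 leukocyte markers 111 to 152, 240 to 417 and 111 to 142, that of 5 fibroblast markers 181 to 277, 463 to 2164 and 489 to 906, and that of 5 myoepithelial markers 164 to 224, 131 to 441 and 212 to 289. Markers of endothelium summed to 44.0 to 144, nerve and glia to at most 18.0, adipocytes to at most 17.0 and skeletal muscle to at most 1.2, with LEP, CKM, ELAVL3, ELAVL4 and GAP43 at 0 in all LL libraries. The part of these cell types in the results below was not tested.

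Some properties of the deposited table touch these genes. RAB15, RAB18, RAB25, RAB26 and RAB3D stand in a stretch of 1375 rows sorted by name at the end of the table, of which 99.0% passed the test in at least 1 comparison, against 25.0% of the 13314 tested genes in the first stretch, sorted by level, and no source used here states why. Across the whole table, 404 pairs of neighbouring genes on the same strand differed by exactly the same amounts in the 9 libraries (1.0, 1.3 and 1.5 FPKM in the LL libraries, 1.0, 1.5 and 1.5 in those of DP, 1.5, 1.2 and 1.0 in those of LG), while the next most frequent difference was found in 42 pairs. In the first stretch of the first LL library, 146 genes fell in the 0.2 FPKM below its amount and 1056 in the 0.2 FPKM from it upwards. Of the 96 genes, 65 were at or above the amounts in all libraries, and RAB24, RAB37, RAB38, RAB39A, RAB40B and STX11 were never more than 2.23 FPKM above them. After division by the factors, the amounts were 2.01 to 2.48 scaled FPKM in the LL libraries, 0.654 to 1.04 in DP and 0.761 to 1.25 in LG. They are thus higher in LL, and their part in the differences of genes close to them was not tested. Finally, 10 of the 96 are in such a pair, equal to a neighbour plus or minus these amounts (RAB3D, RAB4A, RAB5B, RAB9A, RAB40C, SNAP23, STX8, STXBP4, and, with a further constant of 1.34 and 1.77 FPKM, VAMP5 and VAMP2), so the values of each such pair are not separate measurements.

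Of the 96 genes, 82 passed the filter of at least 0.5 FPKM in at least 3 libraries (50 Rab and 32 SNARE genes). The 14 left out never exceeded 1.71 FPKM. Among them were the Rab genes RAB33A, RAB36, RAB39B, RAB3A, RAB3B, RAB42, RAB44, RAB6B and RAB9B, and SNAP25, STX1A and VAMP1 of neuronal exocytosis and SNAP91 (a clathrin adaptor that the symbol rule also takes). A gene passed the test when its limma p, Benjamini-Hochberg adjusted over all 14701 genes tested, was under 0.05 and its log2 fold change was at least 1 in size. In DP against LL, 5 Rab genes rose and 7 fell, which is 10.0% and 14.0% of those tested, beside 13.8% and 8.79% of all genes. In LG against LL, 2 rose and 4 fell (all genes 10.7% and 6.61%), and in LG against DP 3 rose and 4 fell (all genes 6.37% and 6.88%). Of the SNARE genes, 2 rose and 5 fell in DP against LL, 1 rose and 0 fell in LG against LL, and 2 rose and 2 fell in LG against DP. At an unadjusted p under 0.05 in limma, 7 SNARE genes were higher and 11 lower in LG than in LL. No share of all genes at that threshold is given, here or for such counts below. By limma's adjusted p alone, at any size of change, 8359, 7383 and 5112 of all 14701 genes passed in the 3 comparisons. The shares of SNARE genes that passed the test were 6.25% and 15.6%, 3.12% and 0%, and 6.25% and 6.25%. In both comparisons with LL the share that rose was below that of all genes in either family, and the share that fell was above it in DP for both families and at 0% in LG for the SNARE genes, while in LG against DP the shares lay close to those of all genes. These are shares of few genes, and their difference from the background was not tested. Of the 7 Rab genes that fell in DP against LL, all but RAB1A and RAB5A stand in the stretch sorted by name. So do all 4 that fell in LG against LL. Of all tested genes in that stretch, 51.9% fell in DP against LL and 40.0% in LG against LL. In the first stretch, 4.30% and 3.12% fell. The median log2 fold change of the Rab genes was -0.25, -0.23 and 0.02 in the 3 comparisons and that of the SNARE genes -0.18, -0.05 and 0.08, beside 0.00, 0.02 and 0.01 over all genes. Without scaling, the counts turned to 25 Rab genes higher and 2 lower in DP against LL, 18 and 2 in LG against LL and 2 and 7 in LG against DP, and the SNARE genes to 16 and 0, 12 and 0, and 0 and 3. Of all 14701 tested genes, 7979 were then higher and 369 lower in DP against LL. The numbers were 6698 and 345 in LG against LL, and 715 and 1577 in LG against DP. Of the 37 passed tests, 14 held in every setting that gave a value, and these are named below. A setting chosen after seeing the data took the fixed amounts off 9330 genes of the first stretch, those at or above them in all libraries. Of the genes in these 14 calls, the amounts were taken off RAB31 and RAB34 alone. For the others only the scaling factors changed, so that setting does not test the amounts for them. With quantile normalization, 10 of the 12 Rab calls and 4 of the 7 SNARE calls in DP against LL were kept, RAB1A, RAB5A, STX4, VAMP2 and NAPG being the others.

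**Figure D1:**
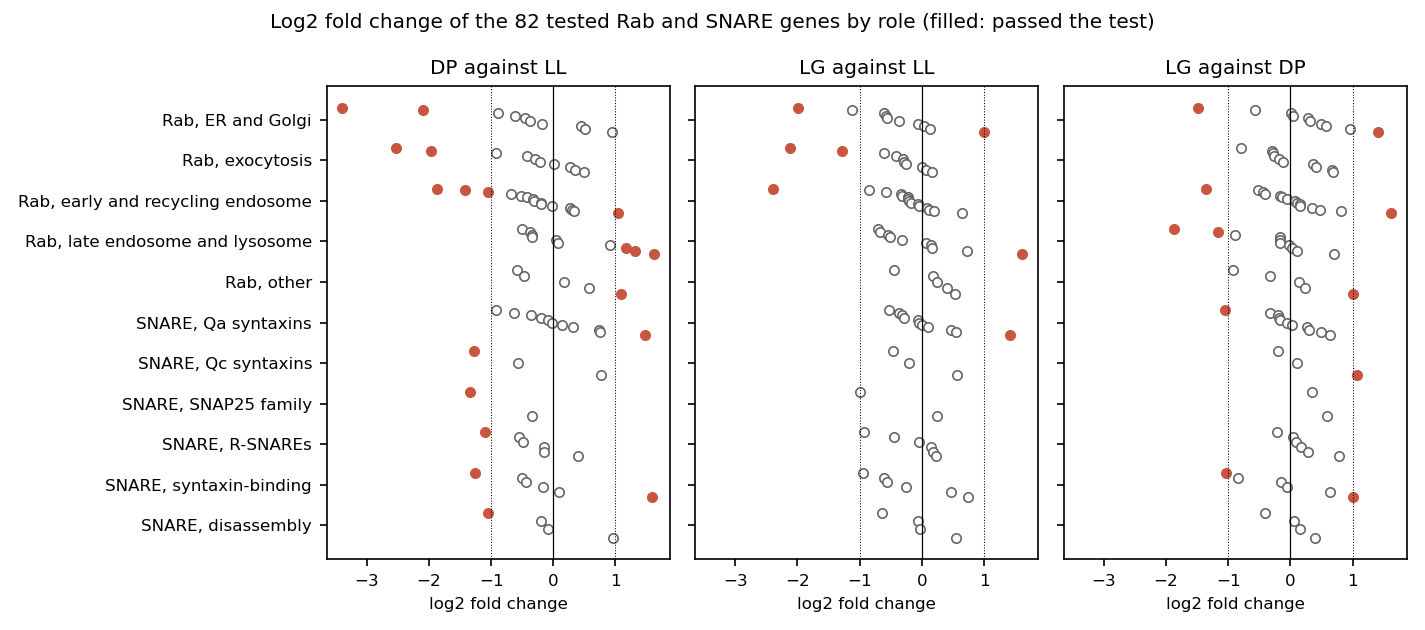
Log2 fold change (horizontal axis) of the 82 tested genes, grouped by role (vertical axis), in DP against LL, LG against LL and LG against DP. Each circle is 1 gene, filled where it passed the test, and dotted lines mark a log2 fold change of 1 in size. The filled circles farthest from 0 are Rab genes lower in DP than in LL, led by RAB18 at -3.39.

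The summed level of the Rab genes was lowest in DP relative to other genes. Its summed scaled FPKM was 887 to 951 in LL goats, 448 to 504 in DP goats and 522 to 609 in LG goats, and without RAB18 it was 603 to 638, 423 to 471 and 462 to 502. The SNARE genes summed to 259 to 291 in LL goats, 207 to 216 in DP goats and 244 to 251 in LG goats. The stages did not overlap in these sums, except that DP and LG did for the Rab genes without RAB18. As deposited, without scaling, the order turned, with Rab sums of 471 to 537 FPKM in LL goats, 667 to 725 in DP goats and 626 to 800 in LG goats, and SNARE sums of 137 to 161, 298 to 324 and 296 to 321.

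Shares within a family do not depend on the scaling. RAB18 held 34.8%, 33.0% and 32.0% of the summed Rab FPKM in the LL libraries, 5.57%, 6.06% and 6.50% in DP and 11.5%, 12.7% and 17.6% in LG. RAB2A held 7.79% ± 0.95 in LL goats, 8.17% ± 1.00 in DP goats and 8.39% ± 1.08 in LG goats (SD, n = 3), and ranked first in DP. RAB7A held 3.20% ± 0.02 in LL and 4.94% ± 0.26 in DP, and RAB14 held 2.49% ± 0.26 and 4.84% ± 0.37, and RAB3D held 3.37% ± 0.80 and 1.52% ± 0.25. A lower share of RAB18 raises that of every other Rab gene. Of the sum without RAB18, chosen after seeing the data, RAB2A held 11.7% ± 1.33 in LL and 8.70% ± 1.1 in DP, RAB7A 4.80% ± 0.14 and 5.26% ± 0.31, RAB14 3.73% ± 0.32 and 5.15% ± 0.38, and RAB3D 5.05% ± 1.21 and 1.62% ± 0.25. Among the SNARE genes VAMP5 ranked first in every stage, with 13.0% ± 1.02, 15.2% ± 0.43 and 15.9% ± 1.02. VAMP2 was second in LL with 11.4% ± 2.50 and held 6.58% ± 0.61 in DP and 6.71% ± 2.61 in LG, and STX7 was second in DP with 8.83% ± 1.26, against 5.35% ± 0.40 in LL. No test is given for these shares, since an exact permutation of 3 against 3 goats cannot go below 0.1.

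**Figure D2:**
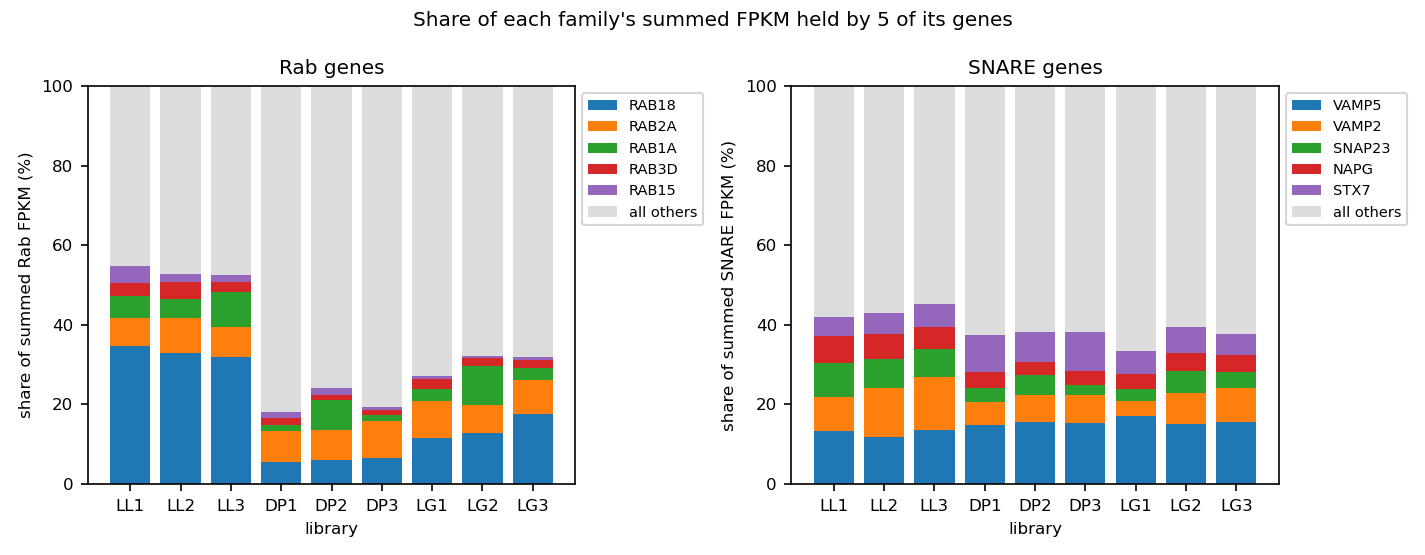
Share in percent of the summed FPKM of the Rab genes (left) and the SNARE genes (right) that 5 genes and all others held in each of the 9 libraries. RAB18 holds 32.0% to 34.8% in LL and 5.57% to 6.50% in DP, and VAMP5 is the widest named SNARE band in most libraries.

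Among the Rabs of the ER and Golgi, 2 of 10 tested fell in DP against LL and 0 rose (2 were higher at an unadjusted p under 0.05 in limma). These are 20.0% and 0%, beside 8.79% and 13.8% of all genes, and RAB18 stands in the stretch sorted by name. RAB18, a Rab of the ER and of lipid droplets (chromosome 13, 36386568 to 36414587, minus strand), was at 329, 313 and 284 scaled FPKM in LL goats, 25.0, 28.0 and 32.7 in DP goats and 60.3, 70.0 and 107 in LG goats. It had the highest level of all 96 genes in LL and LG, and no 2 stages overlapped. It fell in DP against LL (log2 fold change -3.39, SE 0.22, adjusted p 4.4e-06), fell in LG against LL (-1.99, SE 0.22, adjusted p 0.00010) and rose in LG against DP (1.40, SE 0.22, adjusted p 0.0012). The deposited values show the same order, 164, 173 and 172 FPKM in LL goats, 38.2, 40.4 and 47.1 in DP goats and 72.2, 86.4 and 141 in LG goats. The fall in DP and the rise in LG against DP held in every setting, and without scaling the difference of LG from LL was -0.82 and no longer passed.

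RAB1A, which carries cargo from the ER to the Golgi, was at 51.1, 44.8 and 76.6 scaled FPKM in LL goats, 6.98, 35.0 and 7.29 in DP goats and 15.5, 53.1 and 18.9 in LG goats. One DP and one LG library stood far above the other two of their stage, yet all DP values lay below all LL values. RAB1A fell in DP against LL by -2.09 on the log2 scale (SE 0.61, adjusted p 0.015), but not without scaling (-0.74), with quantile normalization (-1.64), or without LL replicate 3 (-1.87) or DP replicate 1 (-1.72), and without DP replicate 2 it passed in LG against LL (-1.13) and LG against DP (1.68) as well. RAB2A, a Rab of the Golgi with the second highest mean of the family in LL and LG and the highest in DP, was at 66.2, 84.1 and 66.8 scaled FPKM in LL goats, 34.5, 34.6 and 46.9 in DP goats and 49.3, 40.1 and 51.6 in LG goats. Its difference of DP from LL was -0.89 (SE 0.18, adjusted p 0.0028), short of the size set for a change, and its paralog RAB2B differed by 0.51 (SE 0.15, adjusted p 0.015). RAB2A passed in DP against LL with the fixed amounts subtracted from the first stretch (-1.38) or without DP replicate 3 (-1.04). With the amounts subtracted it also passed in LG against LL (-1.03). In DP against LL it was at 0.50 without scaling and -0.26 with quantile normalization. RAB1B (-0.46), RAB6A (-0.37), RAB33B (-0.61) and RAB43 (-0.18), Rabs of ER to Golgi and Golgi traffic, were also below the size set for a change.

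RAB30, a Golgi Rab, was at 1.89, 2.06 and 2.97 scaled FPKM in LL goats, 4.92, 6.22 and 4.79 in DP goats and 1.03, 1.32 and 1.36 in LG goats. It stood highest in DP in all 3 libraries and fell in LG against DP (-1.49, SE 0.15, adjusted p 0.00015) in every setting, while its difference of DP from LL was 0.94. That difference passed without scaling (1.95), with quantile normalization (1.00), with a pseudocount of 0.1 (1.19) or without LL replicate 3 (1.08). RAB19, another Golgi Rab at a low level, rose in LG against LL (1.01, SE 0.22, adjusted p 0.0048) from 0.0542 to 0.482 scaled FPKM to 1.11 to 1.91. That call was lost with quantile normalization (0.64), or without LL replicate 2 (0.88), LG replicate 1 (0.90) or LG replicate 2 (0.98). It was also lost with scaling factors recomputed after the fixed amounts were taken off other genes (0.87), with nothing taken off RAB19.

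Of the 10 tested Rabs of exocytosis, 2 fell in both DP and LG against LL, and 0 rose in any comparison (in limma at an unadjusted p under 0.05, 0 were higher in DP or LG than in LL and 3 in LG than in DP). The falls are 20.0% in each, beside 8.79% and 6.61% of all genes, of which 13.8%, 10.7% and 6.37% rose in the 3 comparisons. Both genes that fell, RAB26 and RAB3D, stand in the stretch sorted by name. RAB26, known from secretory granules of exocrine glands (chromosome 25, 1587782 to 1593621, plus strand), was at 12.7, 15.3 and 13.1 scaled FPKM in LL goats, 1.28, 1.57 and 1.78 in DP goats and 2.2, 2.33 and 2.55 in LG goats. The 3 stages did not overlap, and the LL libraries stood far above the rest. The falls in DP (-2.53, SE 0.12, adjusted p 8.2e-07) and in LG (-2.12, SE 0.12, adjusted p 3.0e-06) against LL held in every setting.

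RAB3D, the granule Rab of exocrine cells (chromosome 7, 95598537 to 95609744, minus strand), was at 30.8, 40.1 and 23.4 scaled FPKM in LL goats, 8.09, 6.25 and 7.11 in DP goats and 13.2, 11.6 and 11.2 in LG goats. It fell in DP (-1.97, SE 0.19, adjusted p 3.6e-05) and LG (-1.29, SE 0.19, adjusted p 0.00058) against LL, and without scaling the differences were -0.64 and -0.17. Its neighbour TMEM205 exceeds it by exactly the fixed amounts in all libraries, so the pair is not 2 separate measurements. Its relatives RAB3A and RAB3B were below the filter, and RAB3C was at most 1.19 scaled FPKM in any library.

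None of the other tested exocytic Rabs passed in any comparison before the settings were varied. RAB27A and RAB27B, which dock granules at the plasma membrane, differed by 0.00 (SE 0.14) and 0.49 (SE 0.31) in DP against LL, and neither passed in any comparison. RAB8A, RAB8B and RAB10, which act between the Golgi and the plasma membrane, differed by -0.21, 0.27 and -0.29. RAB13, a Rab of tight junctions, was at 13.8 to 17.6 scaled FPKM in LL goats, 7.32 to 8.57 in DP goats and 11.2 to 15.2 in LG goats, a difference of DP from LL of -0.93 (SE 0.15, adjusted p 0.00068) that turned to 0.37 without scaling. RAB37 differed by -0.42, with values close to the fixed amounts.

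Among the 15 Rabs of early and recycling endosomes, 3 fell and 1 rose in DP against LL. These are 20.0% and 6.67%, beside 8.79% and 13.8% of all genes. Of the 3 that fell, RAB15 and RAB25 stand in the stretch sorted by name. RAB15 (chromosome 10, 26026720 to 26050417, plus strand), which acts between early and recycling endosomes, was at 40.4, 20.3 and 14.9 scaled FPKM in LL goats, 6.73, 7.83 and 3.25 in DP goats and 3.25, 2.70 and 5.27 in LG goats. The LL libraries differed among themselves by more than the DP from the LG libraries, yet all stood above both other stages. It fell in DP (-1.87, SE 0.38, adjusted p 0.0027) and LG (-2.39, SE 0.38, adjusted p 0.00085) against LL, the second in every setting. Without scaling the difference of DP from LL was -0.57 and did not pass.

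RAB25, the RAB11 relative of epithelial recycling endosomes (chromosome 3, 105412814 to 105419597, plus strand), was at 23.5, 17.7 and 16.3 scaled FPKM in LL goats, 9.11, 7.94 and 3.60 in DP goats and 22.1, 23.2 and 20.2 in LG goats. Only the dry period stood apart, with LL and LG overlapping. RAB25 fell in DP against LL (-1.42, SE 0.27, adjusted p 0.0020) and rose in LG against DP (1.61, SE 0.27, adjusted p 0.0019), and the rise held in every setting, whereas without scaling the difference of DP from LL was -0.13. The other RAB11 genes moved less: RAB11A differed by -0.67 and RAB11B by -0.20 in DP against LL. RAB11A passed with the fixed amounts subtracted (-1.12) and turned to 0.68 without scaling.

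RAB5A, the early endosome Rab, was at 19.6, 27.1 and 22.7 scaled FPKM in LL goats, 9.55, 10.1 and 12.3 in DP goats and 19.1, 15.5 and 24.7 in LG goats. RAB5A fell in DP against LL (-1.05, SE 0.19, adjusted p 0.0016), but turned to 0.28 without scaling and did not pass without LL replicate 2 (-0.93) or DP replicate 1 (-0.98). RAB5B, linked to SUOX, and RAB5C differed by -0.33 and -0.31. RAB31, which acts between the trans-Golgi network and endosomes, went the other way, from 4.68, 3.98 and 4.87 scaled FPKM in LL goats to 9.93, 9.02 and 12.1 in DP goats and 3.27, 3.48 and 3.42 in LG goats. It rose in DP against LL (1.04, SE 0.13, adjusted p 0.00015), short of the size without LL replicate 2 (0.96) or DP replicate 3 (0.93), and fell in LG against DP (-1.36, SE 0.13, adjusted p 0.00012) in every setting. RAB14, RAB21, RAB22A, RAB35, RAB4A, RAB4B and RAB17, which sort and recycle endosomal cargo, lay between -0.52 and 0.34 in DP against LL.

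The Rabs of late endosomes, lysosomes and related organelles held 3 of the 5 Rab genes that rose in DP. Of 10 tested, 3 rose against LL and 0 fell (4 were lower at an unadjusted p under 0.05 in limma), beside 13.8% and 8.79% of all genes, and 1 of the 3, RAB32, did not hold in every setting. RAB20, found on phagosomes and endosomes, was at 1.91, 1.63 and 2.74 scaled FPKM in LL goats, 9.03, 6.77 and 9.74 in DP goats and 3.06, 4.41 and 4.95 in LG goats. No 2 stages overlapped, and its rise in DP (1.62, SE 0.19, adjusted p 0.00012) held in every setting. RAB34, which positions lysosomes and acts in cilium formation, was at 3.66, 3.02 and 3.68 in LL goats, 7.91, 8.78 and 14.6 in DP goats and 3.58, 4.15 and 4.09 in LG goats. Its rise in DP (1.32, SE 0.19, adjusted p 0.00043) held in every setting, and its fall in LG against DP (-1.17, SE 0.19, adjusted p 0.0018) did not pass without DP replicate 3 (-0.92).

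RAB32, a Rab of lysosome-related organelles and mitochondria, was at 2.49, 1.30 and 2.66 scaled FPKM in LL goats, 4.57, 4.34 and 10.2 in DP goats and 1.05, 0.762 and 0.868 in LG goats. The third DP library stood far above the others, and the LG libraries were below all the rest. RAB32 rose in DP against LL (1.17, SE 0.28, adjusted p 0.0064), a call lost without LL replicate 2 (0.95) or DP replicate 3 (0.82). It was also lost with scaling factors recomputed after the fixed amounts were taken off other genes (0.78), with nothing taken off RAB32. RAB32 fell in LG against DP in every setting (-1.87, SE 0.28, adjusted p 0.00099). RAB29, which acts at the trans-Golgi network and lysosomes, was at 0.281, 0.380 and 0.644 in LL goats, 2.43, 1.54 and 1.2 in DP goats and 3.36, 2.72 and 4.10 in LG goats. It was the only member of this group to rise in LG against LL (1.61, SE 0.19, adjusted p 0.00015), in every setting. RAB7A, the main late endosome Rab, differed by -0.34 (SE 0.14, adjusted p 0.059), and RAB7B, RAB9A, RAB24, RAB38 and RAB39A lay between -0.50 and 0.08. Of these, RAB24, RAB38 and RAB39A had values close to the fixed amounts.

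Of the 5 other tested Rabs, RAB23, a Rab of Hedgehog signalling and cilia, rose in DP against LL (1.09, SE 0.23, adjusted p 0.0029), from 2.95, 3.16 and 3.77 scaled FPKM to 6.36, 6.44 and 12.9. Without DP replicate 3, its highest library, the difference was 0.79 and did not pass. RAB40C, a Rab-like adaptor of a ubiquitin ligase, rose in LG against DP (1.00, SE 0.23, adjusted p 0.0082) from 6.50, 7.55 and 7.45 to 10.9, 16.3 and 20.1. Its values equal those of WFIKKN1 plus the fixed amounts, and the call was lost without scaling (0.81), with quantile normalization (0.94), or without DP replicate 1 (0.94), LG replicate 2 (0.96) or LG replicate 3 (0.82). RAB12, RAB28 and RAB40B differed by 0.57, 0.17 and -0.58 in DP against LL, with the values of RAB40B close to the fixed amounts.

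Stromal and immune markers moved in the same direction as the Rabs that rose in DP. Of the leukocyte markers, 4 of 6 tested rose in DP against LL, and all 5 fibroblast markers rose, beside 13.8% of all genes. DP replicate 3 had the highest fibroblast sum, 2164. It also had the highest values of RAB20, RAB23, RAB31, RAB32 and RAB34, the 5 Rab genes that rose in DP. ELF5, a factor of milk-secreting epithelium, differed by -4.19 in DP against LL and passed, while KRT8, KRT18, KRT19, EPCAM and CDH1 lay between -0.74 and 0.60 and did not pass. Their part in the Rab results was not tested.

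**Figure D3:**
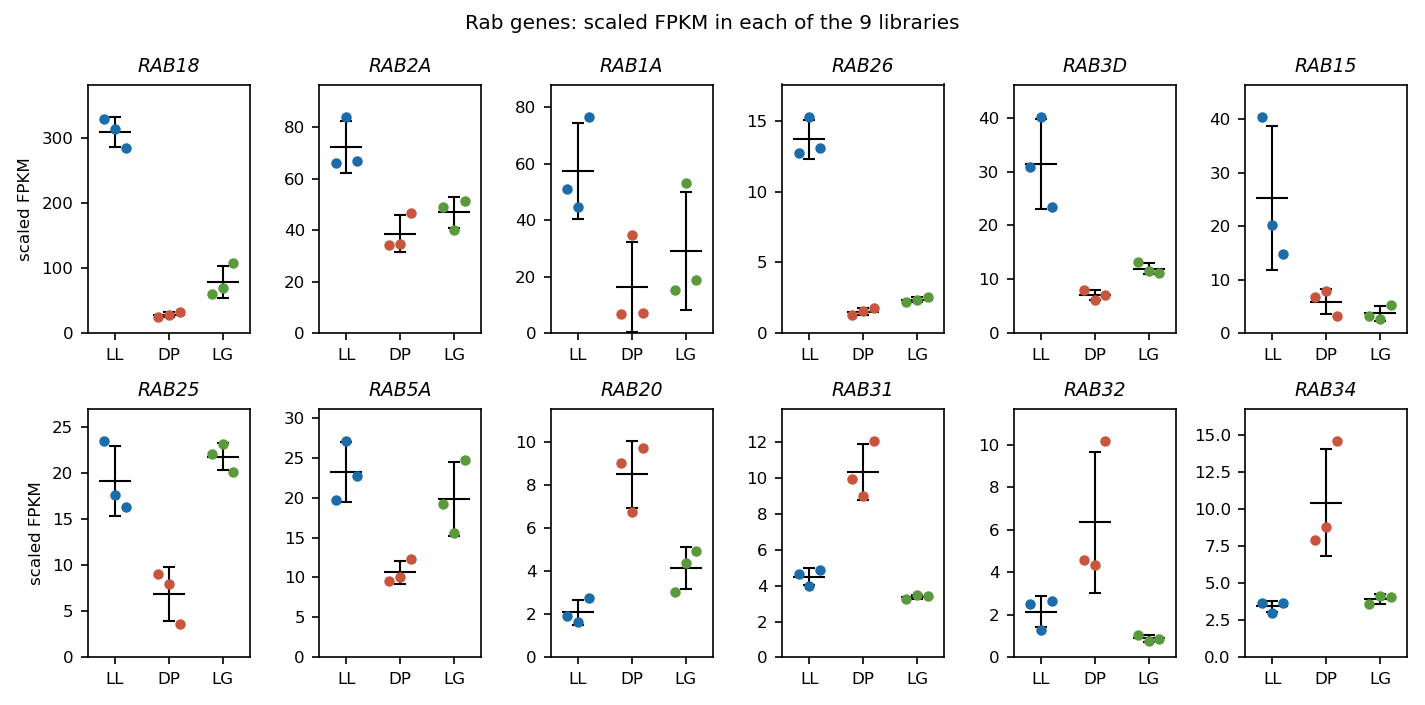
Scaled FPKM (vertical axes, each from 0) of 12 Rab genes in LL, DP and LG. Points are the 3 libraries of a stage, and bars give the mean and SD. RAB18, RAB26, RAB3D and RAB15 are highest in LL, RAB25 and RAB5A are lowest in DP, and RAB20, RAB31, RAB32 and RAB34 are highest in DP.

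The Qa syntaxins, which sit on target membranes, held 1 gene that rose in DP against LL and 0 that fell of 11 tested (3 were lower at an unadjusted p under 0.05 in limma). These are 9.09% and 0%, beside 13.8% and 8.79% of all genes. STX4, the syntaxin of the basolateral plasma membrane, was at 0.221, 0.253 and 0.314 scaled FPKM in LL goats, 3.16, 2.73 and 1.83 in DP goats and 2.35, 2.48 and 2.33 in LG goats. LL stood apart from both other stages, which overlapped. STX4 rose in DP (1.48, SE 0.15, adjusted p 3.7e-05) and in LG (1.42, SE 0.15, adjusted p 6.6e-05) against LL on the log2(value + 1) scale, which understates the change of so low a gene (2.86 and 2.79 with a pseudocount of 0.1). The call in DP was lost with quantile normalization (0.94), and that in LG held in every setting.

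STX3, the apical syntaxin of epithelia, was at 4.52, 5.51 and 4.74 scaled FPKM in LL goats, 2.68, 3.14 and 2.68 in DP goats and 3.01, 3.75 and 4.10 in LG goats, a difference of DP from LL of -0.63 (SE 0.13, adjusted p 0.0027). STX2, another plasma membrane syntaxin, fell in LG against DP (-1.06, SE 0.12, adjusted p 0.00022) from 4.79, 4.47 and 5.60 to 1.95, 1.84 and 1.77. STX2 did not pass with quantile normalization (-0.90) or without DP replicate 3 (-0.98). Nor did it with scaling factors recomputed after the fixed amounts were taken off other genes (-0.97), with nothing taken off STX2. STX19 differed by -0.92 in DP against LL (SE 0.26, adjusted p 0.014). STX19 passed with a pseudocount of 0.1 (-1.54), without LL replicate 1 (-1.04) or DP replicate 1 (-1.01), or with the recomputed factors (-1.23). The syntaxins of the Golgi, ER and endosomes, STX5, STX7, STX12, STX16, STX17 and STX18, lay between -0.20 and 0.75 in DP against LL.

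Of the Qc syntaxins, which act at the trans-Golgi network and endosomes, STX10 was at 5.59, 8.21 and 6.01 scaled FPKM in LL goats, 3.46, 1.51 and 1.72 in DP goats and 6.81, 5.45 and 4.58 in LG goats. All DP libraries were below all others. STX10 fell in DP against LL (-1.27, SE 0.23, adjusted p 0.0015) and rose in LG against DP (1.07, SE 0.23, adjusted p 0.0066), the fall being lost without scaling (-0.16) and the rise without scaling (0.95), DP replicate 2 (0.91), DP replicate 3 (0.97) or LG replicate 1 (0.94). STX6 went the other way by 0.77 (SE 0.13) and passed with the fixed amounts subtracted (1.34), and STX8 differed by -0.56.

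SNAP23, the widely expressed partner of plasma membrane syntaxins, was at 23.5, 21.4 and 18.0 scaled FPKM in LL goats, 7.60, 10.8 and 5.36 in DP goats and 7.34, 14.0 and 9.69 in LG goats. SNAP23 fell in DP against LL (-1.34, SE 0.26, adjusted p 0.0021) and differed by -0.99 in LG against LL (adjusted p 0.011). The difference of LG from LL passed with a pseudocount of 0.1 (-1.05), or without LL replicate 3 (-1.09) or LG replicate 2 (-1.21). With the fixed amounts subtracted it passed as well (-1.38). Without scaling the difference of DP from LL was -0.03, and HAUS2 exceeds SNAP23 by exactly the fixed amounts. SNAP29, which acts in autophagosome fusion, differed by -0.35 in DP against LL, and the neuronal SNAP25 was below the filter.

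Of the 6 tested R-SNAREs, which sit on vesicles, VAMP2 was at 23.6, 35.9 and 34.3 scaled FPKM in LL goats, 12.5, 13.8 and 15.4 in DP goats and 9.26, 19.6 and 21.0 in LG goats. It is a vesicle SNARE of regulated exocytosis. VAMP2 fell in DP against LL (-1.09, SE 0.28, adjusted p 0.0093), but turned to 0.25 without scaling, did not pass without LL replicate 2 (-0.99), and its values equal those of PER1 plus the fixed amounts and a constant. VAMP8, the SNARE of exocrine granules and late endosomes, was at 17.8, 17.1 and 13.3 in LL goats, 10.6, 11.5 and 9.53 in DP goats and 18.4, 19.8 and 18.3 in LG goats. All its DP values were the lowest, with differences of -0.56 in DP against LL (adjusted p 0.0087) and 0.78 in LG against DP (adjusted p 0.0028), both short of the size set. VAMP5, known from muscle, had the highest mean of the SNARE genes in each stage, at 31.2 to 42.2 over the libraries, with VAMP2 above it in LL replicate 2 and RNF181 tracking it exactly. VAMP3, which recycles with endosomes and is the nearest relative of VAMP2, differed by -0.15, VAMP7 by -0.48 and VAMP4 by 0.40 in DP against LL.

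Among the 6 syntaxin-binding genes, STXBP5 (tomosyn, which holds syntaxins back from fusion) was listed at 0 in 1 LL library and was at 0.253 and 0.165 scaled FPKM in the others, at 2.76, 2.26 and 2.21 in DP and at 0.902, 0.924 and 0.860 in LG. No 2 stages overlapped, and the rise in DP against LL (1.58, SE 0.13, adjusted p 1.3e-05) held in every setting. STXBP4, which binds STX4, was at 19.0, 16.4 and 12.5 in LL goats, 6.77, 6.78 and 4.75 in DP goats and 13.9, 13.8 and 11.7 in LG goats. It fell in DP against LL (-1.25, SE 0.18, adjusted p 0.00039), which turned to 0.03 without scaling, and rose in LG against DP (1.00, SE 0.18, adjusted p 0.0027), a call lost without scaling (0.81), with quantile normalization (0.95), or without DP replicate 3 (0.86), LG replicate 1 (0.96) or LG replicate 2 (0.97). Its values equal those of TOM1L1 plus the fixed amounts. STXBP6, an amisyn that binds plasma membrane SNAREs, fell in LG against DP (-1.03, SE 0.20, adjusted p 0.0042). The call was lost without DP replicate 3 (-0.80), LG replicate 1 (-0.96) or LG replicate 3 (-0.99). It was also lost with scaling factors recomputed after the fixed amounts were taken off other genes (-0.94), with nothing taken off STXBP6. STXBP2 and STXBP3, Munc18 proteins that guide syntaxins, differed by -0.44 and -0.17 in DP against LL.

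Of the disassembly genes, NAPG (gamma-SNAP) was at 18.0, 17.8 and 14.3 scaled FPKM in LL goats, 8.42, 6.71 and 7.49 in DP goats and 9.29, 11.0 and 10.5 in LG goats. NAPG fell in DP against LL (-1.05, SE 0.14, adjusted p 0.00023), turned to 0.25 without scaling, and fell just short of the size without LL replicate 1 (-0.99) or DP replicate 2 (-0.98). NAPB (beta-SNAP) went the other way, from 2.35 to 2.87 in LL to 5.0 to 6.45 in DP (0.96, SE 0.13, adjusted p 0.00021). That difference passed without scaling (2.01), with quantile normalization (1.06) or with a pseudocount of 0.1 (1.19). It also passed without LL replicate 1 (1.03) or DP replicate 3 (1.06). NSF, the ATPase itself, and NAPA (alpha-SNAP) differed by -0.09 (SE 0.17) and -0.21 (SE 0.15).

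**Figure D4:**
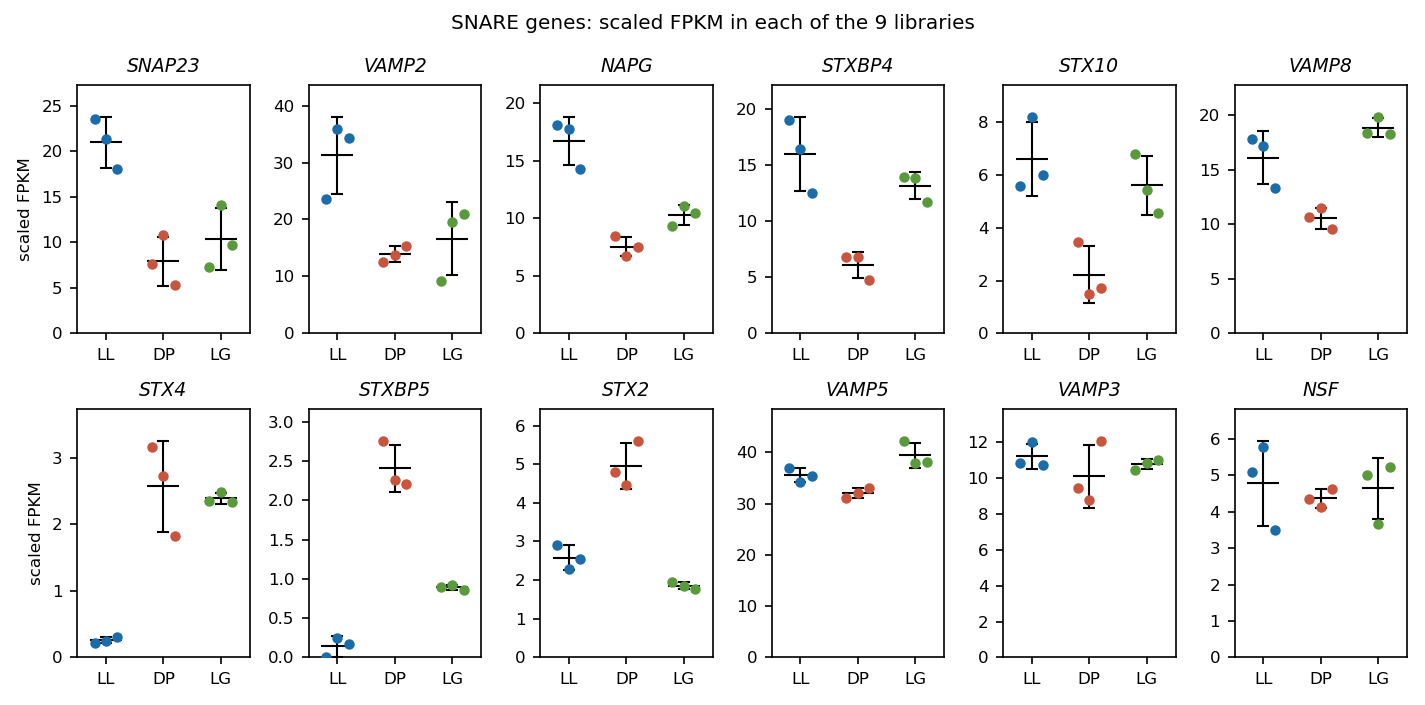
Scaled FPKM (vertical axes, each from 0) of 12 SNARE genes in LL, DP and LG. Points are the 3 libraries of a stage, and bars give the mean and SD. SNAP23, VAMP2 and NAPG are highest in LL, STX4 and STXBP5 are lowest in LL, and VAMP5, VAMP3 and NSF differ little.

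Ratios between close relatives within a library are also free of the scaling. Of 33 pairs of relatives, 20 had means high enough to compare, over 60 stage comparisons on log2 ratios with 0.5 FPKM added, and 14 differences were at least 1 in size. The smallest exact permutation p was 0.1, the lowest that 3 against 3 libraries allow, with a Benjamini-Hochberg adjusted value of 0.18, so none could pass. RAB2A over RAB2B was 3.48, 3.84 and 3.54 in LL goats, 2.16, 2.38 and 2.32 in DP goats and 3.46, 2.99 and 3.10 in LG goats, a mean difference of DP from LL of -1.33 with no overlap. RAB32 over RAB38, both Rabs of lysosome-related organelles, differed in mean by 1.78 in DP against LL and by -2.09 in LG against DP, with RAB38 close to the fixed amounts. RAB11A over RAB25 was 0.39, 0.79 and 0.46 in LL goats, 1.00, 0.99 and 2.14 in DP goats and 0.29, -0.11 and 0.28 in LG goats, so that the dry period again stood apart.

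RAB5A over RAB5C was -0.43, 0.23 and -0.13 in LL goats, -0.82, -1.04 and -0.82 in DP goats and -0.01, -0.33 and 0.00 in LG goats, with all DP values the lowest. NAPA over NAPB was 1.24, 1.2 and 1.35 in LL goats, -0.03, -0.29 and 0.56 in DP goats and 0.71, 0.68 and 0.71 in LG goats. No 2 stages overlapped for this pair, and DP differed from LL by -1.18. VAMP2 over VAMP3 was 1.05, 1.51 and 1.60 in LL and 0.40, 0.64 and 0.34 in DP, a difference of -0.93. RAB1A over RAB1B overlapped between all stages, since 1 library of DP and 1 of LG had ratios of 1.21 and 1.23 against -1.23 to -0.32 in the others.

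**Figure D5:**
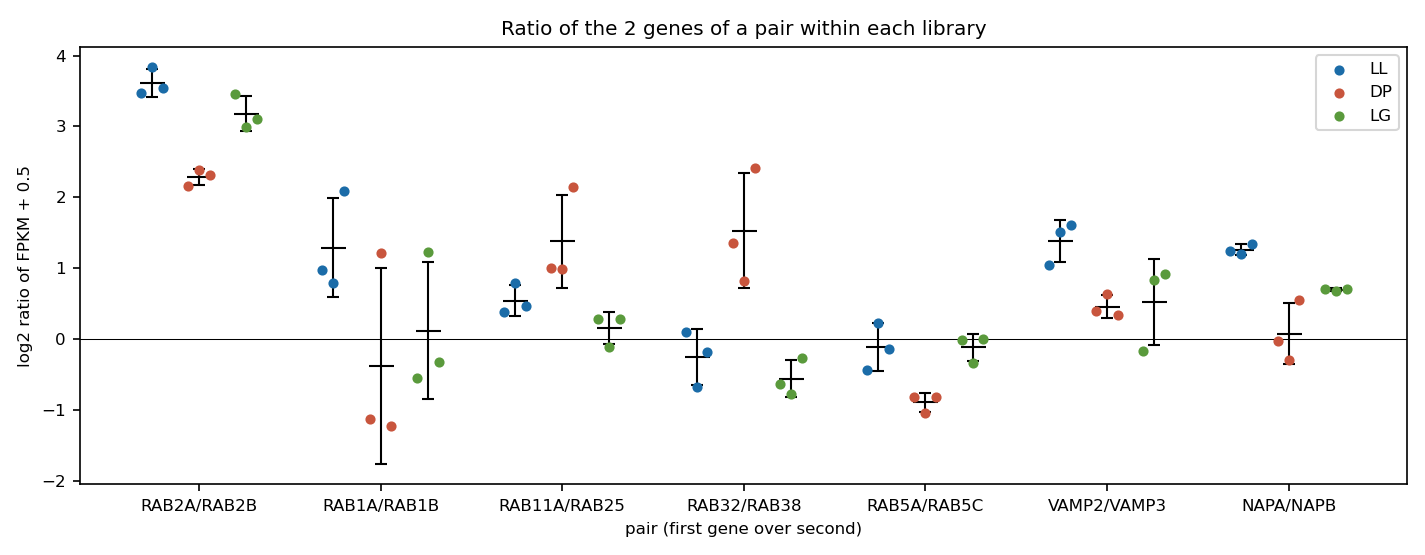
Log2 ratio of the FPKM (with 0.5 added) of 2 related genes within each library (vertical axis) for 7 pairs (horizontal axis). Points are libraries coloured by stage, and bars give the mean and SD. RAB2A/RAB2B, RAB5A/RAB5C and NAPA/NAPB are lowest in DP in all 3 libraries, and RAB1A/RAB1B overlaps between stages.

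Other genes of the pathway were taken from lists of SNAREs, regulators and effectors. Of 10 SNAREs outside the symbol rule, 2 fell and 0 rose in DP against LL in limma (0 were higher at an unadjusted p under 0.05), with a median log2 fold change of -0.57. These are 20.0% and 0%, beside 8.79% and 13.8% of all genes. YKT6, an R-SNARE of the Golgi, was at 66.2, 68.0 and 58.4 scaled FPKM in LL goats, 14.6, 20.7 and 31.8 in DP goats and 42.7, 41.9 and 52.9 in LG goats, and it fell in DP against LL (-1.54, adjusted p 0.00067) and rose in LG against DP (1.06, adjusted p 0.0089). SEC22B, an R-SNARE between ER and Golgi, fell in DP against LL (-1.13, adjusted p 0.00015). Of 14 genes that load, prenylate or switch Rabs, 1 rose and 4 fell in DP against LL, and none passed in LG against LL (in limma at an unadjusted p under 0.05, 3 were higher and 3 lower). The shares in DP are 7.14% and 28.6%, beside 13.8% and 8.79% of all genes. In LG against LL, 10.7% and 6.61% of all genes rose and fell. RABGGTB, which prenylates Rabs, fell in DP against LL (-1.12, adjusted p 0.0028). RAB3IP, an exchange factor for RAB8, fell in DP against LL (-1.11, adjusted p 0.0018) and rose in LG against DP (1.30, adjusted p 0.0015).

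Of 28 tested effectors and tethers, 3 rose and 4 fell in DP against LL, and 3 rose and 2 fell in LG against LL, with the 2 comparisons sharing the LL libraries. These are 10.7% and 14.3%, and 10.7% and 7.14%, near the 13.8% and 8.79%, and 10.7% and 6.61%, of all genes. SYTL2, a granule effector of RAB27, was at 24.6, 35.7 and 20.5 scaled FPKM in LL goats, 7.49, 5.97 and 5.91 in DP goats and 7.72, 7.69 and 5.81 in LG goats, and fell in both (-1.87 and -1.76). MLPH, another RAB27 effector, rose in both (2.70 and 2.54), from at most 0.307 in LL goats to 6.84 to 7.62 in DP goats and 2.69 to 14.0 in LG goats. These RAB27 effectors thus moved in opposite directions, while RAB27A and RAB27B themselves did not pass. Of the 6 tested SM proteins and fusion regulators, 0 passed in any comparison, beside the shares of all genes given above (in limma at an unadjusted p under 0.05, 3 were lower in DP than in LL, 2 lower in LG than in LL and 1 higher in LG than in DP).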

How the data were processed

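Mammary RNA of 9 goats was sequenced from TruSeq libraries. The submitters' processing notes name FastQC, Trimmomatic, HISAT2, SAMtools and HTSeq, while the study's methods name StringTie for quantification. The authors deposited 1 table of 23499 genes. It names no unit or build. The study's methods give FPKM, and the deposited values were read as FPKM of each gene. Reads behind a value are unknown, so no counting error or count test was possible. All 96 genes matched RefSeq ARS1.2 by identifier, start and end. The genes and lists were chosen with earlier results of these data known.

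Values were divided by median-ratio factors from 15905 genes above 0 in all libraries, and log2(value + 1) was fitted with limma 3.58.1 (R 4.3.3) for the 14701 genes that reached 0.5 FPKM in 3 or more libraries, using eBayes with trend and all 9 libraries without covariates. Every adjusted p given for a gene is limma's, adjusted by Benjamini-Hochberg. The fit was tested on simulated data. Pair ratios used scipy 1.17.1, two-sided exact permutation. Neighbours within 8 rows on the same strand (506 pairs) were searched for equal values. The genes named are up to 5 per family, direction and comparison with the largest changes among those that passed, 35 fixed genes, the 5 highest per family and stage and pairs whose ratios did not overlap; RAB13, RAB33B, RAB43, RAB6A, STX6 and STX19 and the others given by value alone were added after their values were seen. The replicate numbers are of different goats and do not pair them (correlations of same-numbered libraries -0.11 to 0.20). Some genes matched by the rule enter the counts but are not reported by name here.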

Additional observations from a re-analysis of the deposited data

How the results depend on the processing

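Alternatives covered scaling, pseudocount, filter, libraries in the fit, a replicate block, the mean-variance trend, the call rule, linked genes and each library left out. A further one, chosen after seeing the data, subtracted the fixed amounts from genes of the first stretch at or above them in all libraries. The scaling factors of all genes were then recomputed. The filters, the 2-stage fits, the trend and the replicate block gave counts within 1.5 times the reported ones, and the fit with the replicate block called 12 Rab genes in DP against LL, as did the fit without it, and changed no other call of a Rab or SNARE gene. Without scaling, Rab genes called numbered 27 in DP against LL and 20 in LG against LL, and SNARE genes 16 and 12, beside the counts of all genes given above. With adjusted p alone, 27, 19 and 19 Rab genes and 19, 17 and 10 SNARE genes passed in the 3 comparisons (DP against LL, LG against LL, LG against DP). Of all 14701 tested genes, 8359, 7383 and 5112 did so. With a pseudocount of 0.1, 10 Rab and 5 SNARE genes passed in LG against LL, beside 2359 higher and 1553 lower of all 14701 genes. With quantile normalization 2 SNARE genes passed in LG against DP, with the fixed amounts subtracted 5 did so in LG against LL but 2 in LG against DP, and without linked genes 4 in DP against LL. Of all 14701 genes, quantile normalization gave 844 higher and 1008 lower in LG against DP. With the amounts subtracted, 1684 were higher and 1451 lower in LG against LL, and 1148 and 969 in LG against DP. With 1 library left out, Rab genes called ranged from 9 to 14, 5 to 7 and 6 to 10, SNARE genes from 6 to 8, 1 to 4 and 0 to 4 (0 without DP replicate 3), and pair differences of at least 1 from 13 to 17. The causes were not tested.

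Without scaling, 22 log2 fold changes of the tested Rab and SNARE genes turned sign with 1 of the values past the threshold. In DP against LL these were NAPA (1.01), NAPG (0.25), NSF (1.05), RAB10 (1.06), RAB11B (1.07), RAB14 (1.33), RAB21 (1.07), RAB43 (1.06), RAB5A (0.28), RAB5C (1.04), RAB7A (1.02), RAB8A (1.07), STX16 (1.23), STXBP3 (1.1), STXBP4 (0.027), VAMP2 (0.25), VAMP3 (1.13) and VAMP5 (1.23), and in LG against LL RAB11B (1.01), RAB8B (1.01), STX7 (1.08) and VAMP3 (1.01). Of their other values under an alternative, 4040 kept their sign and side of the threshold, 53 no longer passed, 101 newly passed and 194 turned sign without passing in either setting. Calls that miss 1 by a few hundredths are not separated from those that reach it, and low genes are limited by the pseudocount and the fixed amounts.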
